A study of Mus musculus with 13 samples.

Results

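The transcripts of 6 genes that define the regulatory T (Treg) cell were examined in T cells sorted from mouse tumors, with Treg cells present or ablated. Members were the rows of the deposited expression table whose symbol was Foxp3, Ikzf2 (Helios), Ikzf4 (Eos), Lrrc32 (GARP), Itgb8 or Nrp1 (neuropilin-1). All 6 of 6 symbols were found among the 12963 genes of the table, and all 6 were among the 12667 genes that passed the filter on low values and were tested. At least 1 group held each member at a level well above that filter, so passing it says nothing about the others.

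B16-F10 melanoma, a transplantable mouse tumor line, formed subcutaneous tumors in Foxp3-EGFP-DTR mice. In this strain the endogenous Foxp3 gene drives a green fluorescent protein (EGFP) and the human diphtheria toxin receptor (DTR), so that diphtheria toxin (DTx) kills Foxp3-expressing cells and PBS leaves them alive. Every group carried this genotype, and no group given DTx without the receptor was analysed here, so loss of Treg cells and the toxin itself cannot be told apart in these libraries. The labels give no strain background and no age. The 13 libraries fell into 5 groups. Mice given PBS yielded Treg cells (Treg PBS, n = 3), CD4+ conventional T cells, or Tconv cells (CD4 PBS, n = 2), and CD8+ Tconv cells (CD8 PBS, n = 2). Mice given DTx yielded the CD4+ Tconv (CD4 DTx, n = 3) and the CD8+ Tconv populations (CD8 DTx, n = 3). Treg cells were sorted as EGFP-positive and Tconv cells as EGFP-negative, and EGFP reads the Foxp3 locus. The Foxp3 difference between Treg and Tconv cells was therefore set by the gate and is given only as a check of the labels.

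Foxp3 is the transcription factor that fixes Treg cell fate, and its loss in mouse or human leads to lethal autoimmunity. Helios and Eos are zinc finger proteins of the Ikaros family that work with Foxp3, Helios in keeping Treg cells stable in inflamed tissue and Eos in silencing Foxp3 target genes. GARP holds latent TGF-beta on the Treg cell surface, and integrin beta-8, paired with integrin alpha-V, releases the active cytokine from that complex. Neuropilin-1 is a co-receptor for semaphorins and vascular endothelial growth factor that marks many Treg cells of thymic origin and steadies Treg cells inside tumors. It is also made by dendritic cells, endothelial cells and some activated T cells.

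The main observation was a split within the set. After DTx, Ikzf2, Ikzf4, Lrrc32 and Itgb8 stood at between 0.514% and 9.32% of their mean Treg level in CD4 Tconv cells. In CD8 Tconv cells they stood at between 0.204% and 5.80%. Foxp3, set by the gate, was at 0.0379% in CD4 DTx and 0.516% in CD8 DTx. Nrp1 stood at 164% of its Treg level in CD4 DTx and at 62.5% in CD8 DTx, from 16.7% and 8.87% in the matching PBS groups. Of the other 5 members only Ikzf2 rose in CD4 Tconv cells, to 9.32% of its Treg level, and that call rested on 1 library.

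Values are normalized reads, the authors' read counts divided by a factor for each library, and a single read was worth between 0.661 and 1.37 of these units. Libraries held between 15947556 and 34140486 recovered reads, and 3 reads, taken as the detection floor, came to between 1.98 and 4.10 units. Cd4 was between 10595 and 32503 normalized reads in all Treg and CD4 libraries and between 0 and 413 in the CD8 libraries, and Cd8a was at 23475 or more in every CD8 library against 1302 or less elsewhere, so the lineage labels held. Sex-linked transcripts showed that all 5 libraries numbered 3 came from male tissue and the other 8 from female tissue. Every call on a member below was kept with sex as a covariate, which also brought 1 further call, given with it. In bulk RNA, fewer expressing cells and less RNA per cell cannot be told apart.

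**Figure D1:**
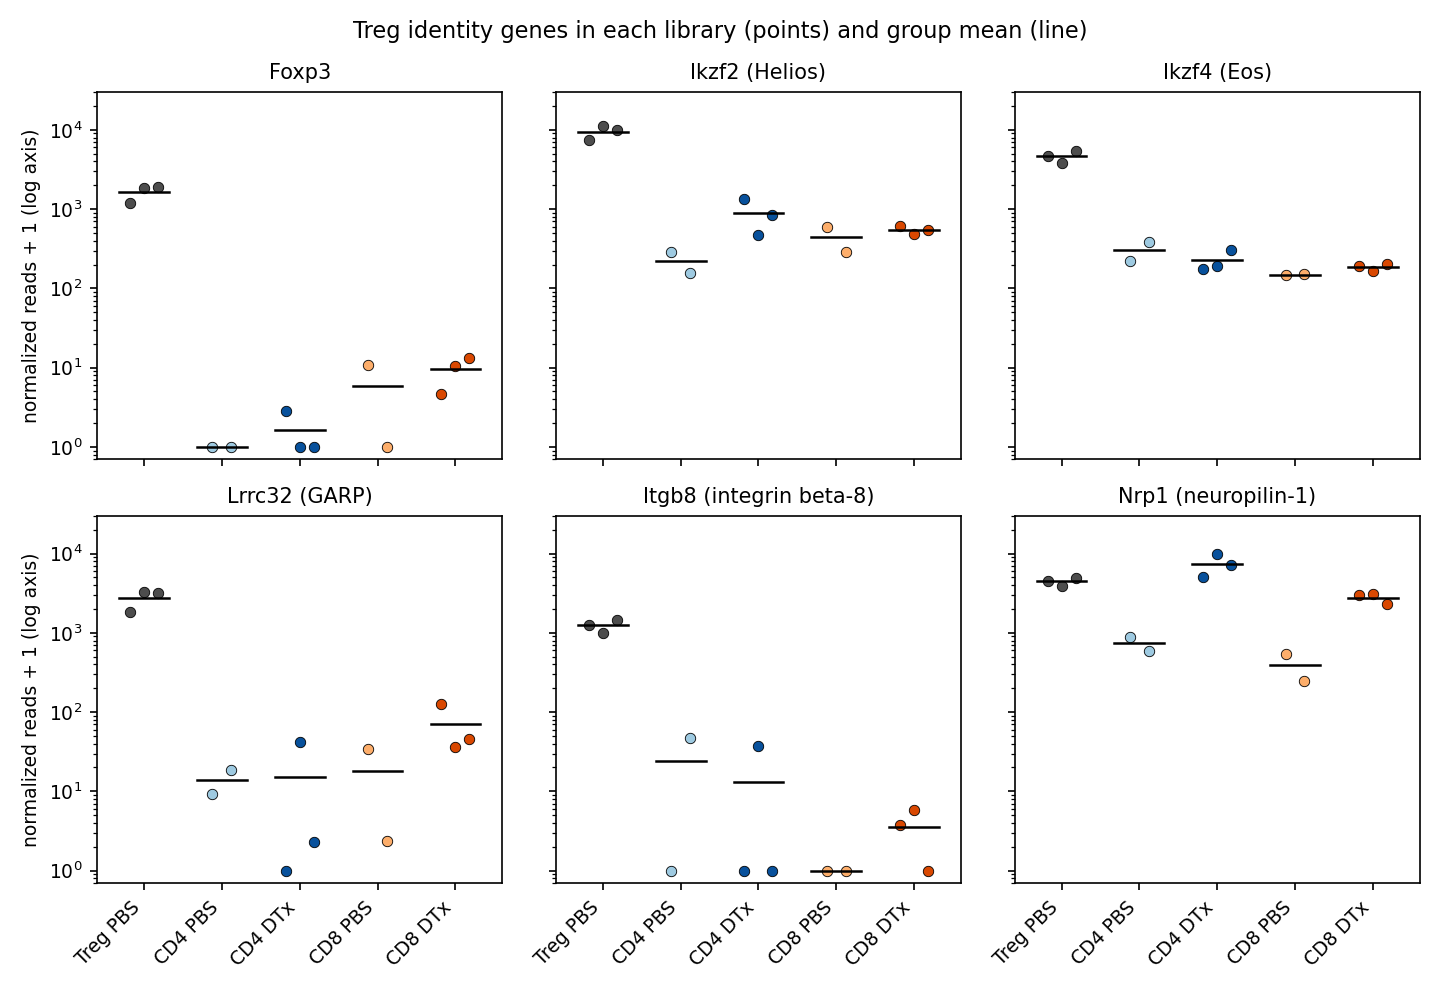
Normalized reads plus 1 (log axis) of the 6 members in each of the 13 libraries, one point per library and a line at the group mean, by group. In 5 panels the 3 Treg PBS points stand far above every Tconv point, whereas the CD4 DTx points of Nrp1, from 5067 to 9731, lie above the Treg PBS points, from 3928 to 4961.

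Promoter sequence is shown for Foxp3 and Nrp1 because Nrp1 rose in both Tconv lineages after DTx and Foxp3 stayed near the detection floor. Of the 6 members, 3 (Foxp3, Itgb8 and Nrp1) were matched in a RefSeq promoter table on GRCm38.p6, a later build than the NCBIM37 (mm9) build of the expression files. The letters run 5′ to 3′ up to the annotated start, and capitals mark motif matches. The Nrp1 window, chr8:128358823-128359072 on the + strand, holds no annotated exon and lies inside the annotated gene, since the earliest start is farther upstream. The Foxp3 window, chrX:7579426-7579675 on the + strand, is shown from its first base to chrX:7579566, where an exon of another Foxp3 transcript begins.
Nrp1: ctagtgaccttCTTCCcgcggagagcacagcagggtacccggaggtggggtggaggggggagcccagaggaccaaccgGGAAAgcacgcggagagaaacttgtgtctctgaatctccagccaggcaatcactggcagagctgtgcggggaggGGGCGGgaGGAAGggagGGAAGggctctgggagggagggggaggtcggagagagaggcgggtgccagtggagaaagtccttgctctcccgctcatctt
Foxp3: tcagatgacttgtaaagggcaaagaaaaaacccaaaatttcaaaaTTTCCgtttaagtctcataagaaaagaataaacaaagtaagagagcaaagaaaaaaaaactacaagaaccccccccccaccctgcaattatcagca

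Over 250 bases before the start, G and C made up 64.4% of the Nrp1 window and 37.6% of the Foxp3 window, against a median of 52.4% over the 32851 promoters of the table. The Itgb8 window, chr12:119238277-119238526 on the - strand, was at 62.4% and lies wholly inside an exon of other Itgb8 transcripts, so its letters are not shown. Motifs were searched on both strands. The ETS core GGAAG, held by 64.1% of all promoters, matched 3 times in Nrp1, 2 times in Itgb8 and 1 time in Foxp3. That Foxp3 match lies in the stretch not shown. The NFAT core GGAAA, held by 55.6%, matched 1 time each in Nrp1 and Foxp3. The SP1 box GGGCGG, held by 32.7%, matched in Nrp1, and the TATA box TATAAA, held by 12.4%, matched in Foxp3 in the stretch not shown. The forkhead letters TGTTTAC (3.17% of promoters), the RUNX letters TGTGGT (14.0%), the AP-1 letters TGANTCA (6.75%), the STAT letters TTCNNNGAA (7.02%) and the CRE letters TGACG (17.8%) were not in the Nrp1 and Itgb8 windows or in that of this first Foxp3 start. The table gives Foxp3 a second start, whose window at chrX:7580233-7580482 on the + strand has 46% G and C and no annotated exon. That window, not shown, held 1 STAT match, 1 NFAT match that overlaps it and 1 ETS match, and none of the other motifs. These matches describe the letters only.

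In tumors with Treg cells in place, every member was higher in Treg PBS than in CD4 PBS or CD8 PBS. All 6 of 6 passed the test in the higher direction against CD4 PBS, where 13.5% of the tested genes did, and all 6 of 6 passed against CD8 PBS, where 11.9% did (limma on log2(value + 1), adjusted p under 0.05 over all genes). The Treg PBS libraries lay above every CD4 PBS library for all 6 members, against 29.2% of tested genes, and above every CD8 PBS library for all 6, against 29.7%. These contrasts are how the genes came to be known as Treg genes, so the counts describe the sort. Divided by exon length, the members differed in abundance within Treg cells. The level was 1239 ± 144 normalized reads per kilobase for Nrp1, 995 ± 188 for Ikzf2, 793 ± 138 for Ikzf4, 598 ± 174 for Lrrc32, 401 ± 98.5 for Foxp3 and 148 ± 27.9 for Itgb8 (SD, n = 3). The library ranges of neighbours in that order overlapped except those of Foxp3 and Itgb8, so only Itgb8 stood apart from its neighbour.

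Foxp3 was at 1178, 1856 and 1896 normalized reads in Treg PBS replicates 1, 2 and 3, and at 0 in both CD4 PBS libraries. It was at 1.87, 0 and 0 in CD4 DTx, or 2 reads in all, at 9.72 and 0 in CD8 PBS, and at 3.70, 9.63 and 12.1 in CD8 DTx. All Tconv libraries lay near or under the detection floor and none came near a Treg library. Set against the floor, the Treg PBS mean of Foxp3 was at least 401-fold higher than that of CD4 PBS (limma, adjusted p = 5.30e-05), and the ratio of Treg PBS to CD4 DTx was 2240 with a 95% counting interval from 620 to 18505. DTx against PBS gave a log2 fold change of 0.51 (SE 1.08, adjusted p = 0.800) in CD4 and 1.41 (SE 1.08, adjusted p = 0.422) in CD8 Tconv cells, both from a handful of reads. The highest EGFP-negative library, CD8 DTx replicate 3, held 0.737% of the mean Treg level. The contrasts of Foxp3 with Treg PBS, with their test, follow from the gate.

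Ikzf2 was at 7511, 11018 and 9964 normalized reads in Treg PBS replicates 1, 2 and 3. In CD4 Tconv cells it was at 290 and 157 with PBS (replicates 2 and 3) and at 1335, 476 and 843 with DTx (replicates 1, 2 and 3). In CD8 Tconv cells it was at 600 and 289 with PBS and at 620, 485 and 546 with DTx. The CD4 DTx libraries all lay above those of CD4 PBS, as for 23.4% of tested genes, while the CD8 PBS libraries overlapped those of CD8 DTx. Ikzf2 rose in CD4 Tconv cells after DTx with a log2 fold change of 1.93 (limma, SE 0.43, adjusted p = 0.0114), a 3.80-fold change with a 95% interval from 1.98 to 7.30. Without CD4 PBS replicate 3 the change was 1.49 and the adjusted p 0.160, and fitted on the CD4 groups alone the adjusted p was 0.0661. In CD8 Tconv cells the change was 0.39 (SE 0.43, adjusted p = 0.581). The difference between both DTx effects on Ikzf2 was 1.53 on the log2 scale (95% interval from 0.20 to 2.86, adjusted p = 1), so the CD4 and CD8 effects were not shown to differ.

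The DTx-exposed CD4 Tconv cells still held far less Ikzf2 than Treg cells. The log2 fold change against Treg PBS was -3.53 (limma, SE 0.39, adjusted p = 3.10e-04) in CD4 DTx and -4.10 (SE 0.39, adjusted p = 6.24e-05) in CD8 DTx. CD4 DTx libraries carried between 5.02% and 14.1% of the mean Treg level.

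Ikzf4 was at 4688, 3786 and 5395 normalized reads in Treg PBS replicates 1, 2 and 3. It was at 220 and 388 in CD4 PBS, at 175, 193 and 308 in CD4 DTx, at 146 and 149 in CD8 PBS and at 189, 167 and 199 in CD8 DTx. All Tconv libraries stayed at 388 or less. The change with DTx was -0.42 (limma, SE 0.34, adjusted p = 0.467, 95% interval from -1.16 to 0.33) in CD4 and 0.32 (SE 0.34, adjusted p = 0.568, 95% interval from -0.42 to 1.06) in CD8 Tconv cells. The CD8 DTx libraries lay just above both CD8 PBS libraries, as 22.8% of tested genes did. Against Treg PBS, Ikzf4 was lower in CD4 DTx with a log2 fold change of -4.38 (SE 0.31, adjusted p = 1.42e-05) and in CD8 DTx with one of -4.62 (SE 0.31, adjusted p = 5.22e-06), the smallest standard errors of the 5 members that stayed low.

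The 3 other Ikaros family genes differed among themselves. Ikzf1 (Ikaros), a regulator of lymphocyte development, was lower in Treg cells, where the mean was 1397 ± 648 normalized reads (SD, n = 3) against 8866 ± 665 in CD4 PBS (SD, n = 2), a log2 fold change of -2.79 (limma, SE 0.46, adjusted p = 0.00115). Ikzf3 (Aiolos) was higher in Treg cells, at 6666 ± 1008 against 1795 ± 372, with a log2 fold change of 1.90 (SE 0.27, adjusted p = 5.08e-04). Ikzf5, named here after its values were seen, was at 511 ± 277 against 858 ± 48.3 and did not pass. After DTx, Ikzf3 rose in CD8 Tconv cells to 8947 ± 2833 from 2935 ± 925 (log2 fold change 1.60, SE 0.27, adjusted p = 0.00370). None of the 3 passed in CD4 Tconv cells by limma, edgeR or DESeq2, with 1 of 3 under 0.05 before adjustment. Ikzf3 was lower in CD4 DTx than in CD8 DTx (log2 fold change -1.53, SE 0.24, adjusted p = 0.0103).

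**Figure D2:**
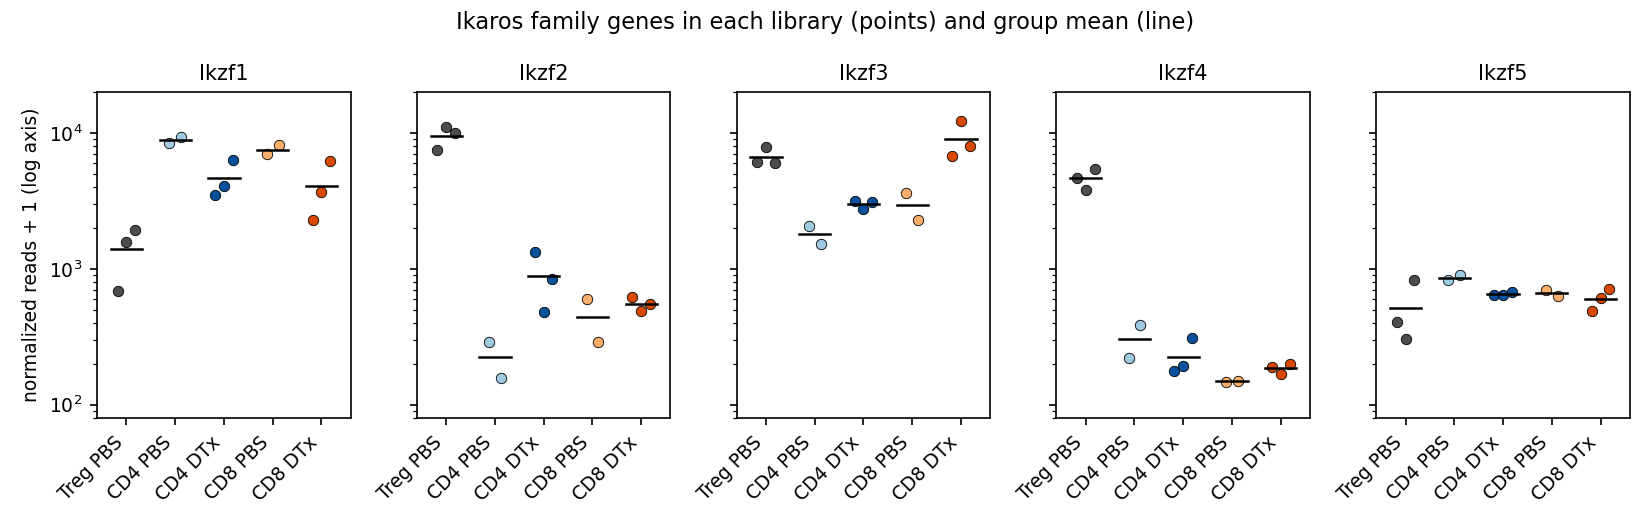
Normalized reads plus 1 (log axis) of the 5 Ikaros family genes in each library, with a line at the group mean. Ikzf2 and Ikzf4 stand highest in Treg PBS, Ikzf1 lowest there, and Ikzf3 in CD8 DTx (mean 8947) stands beside its Treg PBS level (mean 6666).

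Lrrc32 was at 1822, 3254 and 3134 normalized reads in Treg PBS replicates 1, 2 and 3. In CD4 Tconv cells it was at 8.20 and 17.8 with PBS and at 0, 40.9 and 1.32 with DTx. In CD8 Tconv cells it was at 32.8 and 1.33 with PBS and at 127, 35.6 and 44.4 with DTx. All CD8 DTx libraries lay above both CD8 PBS libraries, as for 22.8% of tested genes, though 35.6 in CD8 DTx was only just above 32.8 in CD8 PBS. CD8 DTx replicate 1 was the highest of the 10 Tconv libraries. The log2 fold change with DTx in CD8 Tconv cells was 2.75 (limma, SE 1.44, adjusted p = 0.245, 95% interval from -0.38 to 5.88) and did not pass. In CD4 Tconv cells it was -1.52 (SE 1.44, adjusted p = 0.533), a sign that edgeR and DESeq2 turned.

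Against Treg PBS, Lrrc32 was lower in CD4 DTx with a log2 fold change of -9.17 (limma, SE 1.29, adjusted p = 0.00124) and in CD8 DTx with one of -5.47 (SE 1.29, adjusted p = 0.0196). The CD8 DTx libraries carried between 1.30% and 4.62% of the mean Treg level. That CD8 call was lost when Treg PBS replicate 2 or 3 or CD8 DTx replicate 2 or 3 was left out (adjusted p from 0.0553 to 0.0789), with the change between -5.35 and -5.12. CD4 DTx was lower than CD8 DTx by 3.70 on the log2 scale (95% interval of the log2 fold change from -6.50 to -0.90, adjusted p = 0.236), and both groups overlapped.

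Itgb8 was at 1261, 997 and 1464 normalized reads in Treg PBS replicates 1, 2 and 3. It was at 0 and 46.2 in CD4 PBS, at 0, 36.8 and 0 in CD4 DTx, at 0 and 0 in CD8 PBS and at 2.77, 4.82 and 0 in CD8 DTx. A single library in each CD4 group held nearly all of its Itgb8 reads, and the rest were at 0. Itgb8 was higher in Treg PBS than in CD4 PBS with a log2 fold change of 7.48 (limma, SE 1.77, adjusted p = 0.0108), which fell to 4.70 (adjusted p = 0.148) without CD4 PBS replicate 2. With edgeR the adjusted p was 0.0504 and with DESeq2 it was 0.132. Against CD8 PBS it was at least 310-fold higher (adjusted p = 0.00199). Neither DTx effect passed, with a log2 fold change of -1.03 (SE 1.77, adjusted p = 0.745) in CD4 and 1.48 (SE 1.77, adjusted p = 0.612) in CD8 Tconv cells. Against Treg PBS it was lower in CD4 DTx (log2 fold change -8.51, SE 1.58, adjusted p = 0.00630), a call that DESeq2 did not make (adjusted p = 0.0746), and in CD8 DTx (log2 fold change -8.78, SE 1.58, adjusted p = 0.00415).

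Of 11 listed genes that work with GARP and integrin beta-8 in latent TGF-beta handling, 9 were in the table and tested. Itgav, which encodes the alpha-V chain that pairs with beta-8, was the 1 gene of the 9 that passed between Treg and Tconv cells by limma, with a Treg PBS mean of 3091 ± 927 normalized reads (SD, n = 3) against 543 ± 48.2 in CD4 PBS (SD, n = 2), a log2 fold change of 2.47 (limma, SE 0.59, adjusted p = 0.0119). Against CD8 PBS its log2 fold change was 2.17 (SE 0.59, adjusted p = 0.0241). DESeq2 called 2 of the 9 in Treg PBS against CD4 PBS, 1 higher and 1 lower, and edgeR called 1. Tgfb1, which encodes the cytokine that GARP holds and was named after its values were seen, ranged from 1220 to 2219 in Treg PBS and from 1007 to 3212 in CD4 DTx, with a log2 fold change of 0.06 (SE 0.47, adjusted p = 0.950) between Treg PBS and CD4 PBS. None of the 9 passed after DTx with limma or edgeR, in either lineage. Before adjustment 0 of 9 were under 0.05 in CD4 and 3 of 9 in CD8 Tconv cells, and DESeq2 called 1 gene in CD4 and 0 in CD8. The gene DESeq2 called was Tgfb3, another TGF-beta cytokine gene, named after its values were seen. Tgfb3 in CD4 Tconv cells was at 32.8 and 18.5 normalized reads with PBS and at 13.1, 745 and 557 with DTx, where CD4 DTx replicate 1 lay below both PBS libraries. Its log2 fold change was 2.81 (SE 1.51, adjusted p = 0.264) by limma and 4.10 (adjusted p = 0.00587) by DESeq2. Tgfb3 in CD8 Tconv cells was at 15.8 and 0 with PBS and at 52.7, 78.0 and 66.0 with DTx, all higher (limma, adjusted p = 0.114).

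Nrp1 was at 4486, 3928 and 4961 normalized reads in Treg PBS replicates 1, 2 and 3. In CD4 Tconv cells it was at 894 and 594 with PBS (replicates 2 and 3) and at 5067, 9731 and 7120 with DTx (replicates 1, 2 and 3). In CD8 Tconv cells it was at 546 and 245 with PBS and at 2977, 3045 and 2333 with DTx. Every DTx library lay above every PBS library of its lineage, as for 23.4% of tested genes in CD4 and 22.8% in CD8 Tconv cells. Every CD4 DTx library lay above every Treg library, and every CD8 DTx library lay below every Treg library. Nrp1 was the one member found at Treg-like abundance in EGFP-negative cells.

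The rise of Nrp1 passed in both lineages. The log2 fold change with DTx was 3.27 (limma, SE 0.35, adjusted p = 1.52e-04) in CD4 Tconv cells, a 9.67-fold change with a 95% interval from 5.74 to 16.3. In CD8 Tconv cells it was 2.92 (SE 0.35, adjusted p = 5.82e-04), a 7.54-fold change with a 95% interval from 4.48 to 12.7. Both calls were made in 22 of 22 alternatives, with the CD4 change from 2.98 to 3.57 and the CD8 change from 2.34 to 3.49 when single libraries were left out. The effects differed by 0.36 on the log2 scale (95% interval from -0.70 to 1.42, adjusted p = 1). Nrp1 was higher in Treg PBS than in CD4 PBS by a log2 fold change of 2.60 (SE 0.35, adjusted p = 3.05e-04) and than in CD8 PBS by 3.60 (SE 0.35, adjusted p = 4.43e-05), the smallest Treg excess of the 6 members in both comparisons.

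After DTx the distance of Nrp1 from the Treg level was small. CD4 DTx stood above Treg PBS by a log2 fold change of 0.67 (95% interval from -0.0032 to 1.34, limma, adjusted p = 0.236), with no overlap, as for 10.2% of tested genes. CD8 DTx stood at a log2 fold change of -0.68 against Treg PBS (95% interval from -1.35 to -0.011, adjusted p = 0.246), again with no overlap, as for 13.9% of tested genes in that direction. Neither passed, and the intervals leave room for a difference of up to 1.35 on the log2 scale. Every CD4 DTx library was above every CD8 DTx library, as for 6.02% of tested genes, with a log2 fold change of 1.35 (SE 0.31, adjusted p = 0.0524). Same-numbered libraries of these 2 groups deviated together, and with the replicate number as a block the adjusted p was 0.0203 and the count of genes passing was 414 in place of 208. With sex as a covariate the adjusted p was 0.0382.

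**Figure D3:**
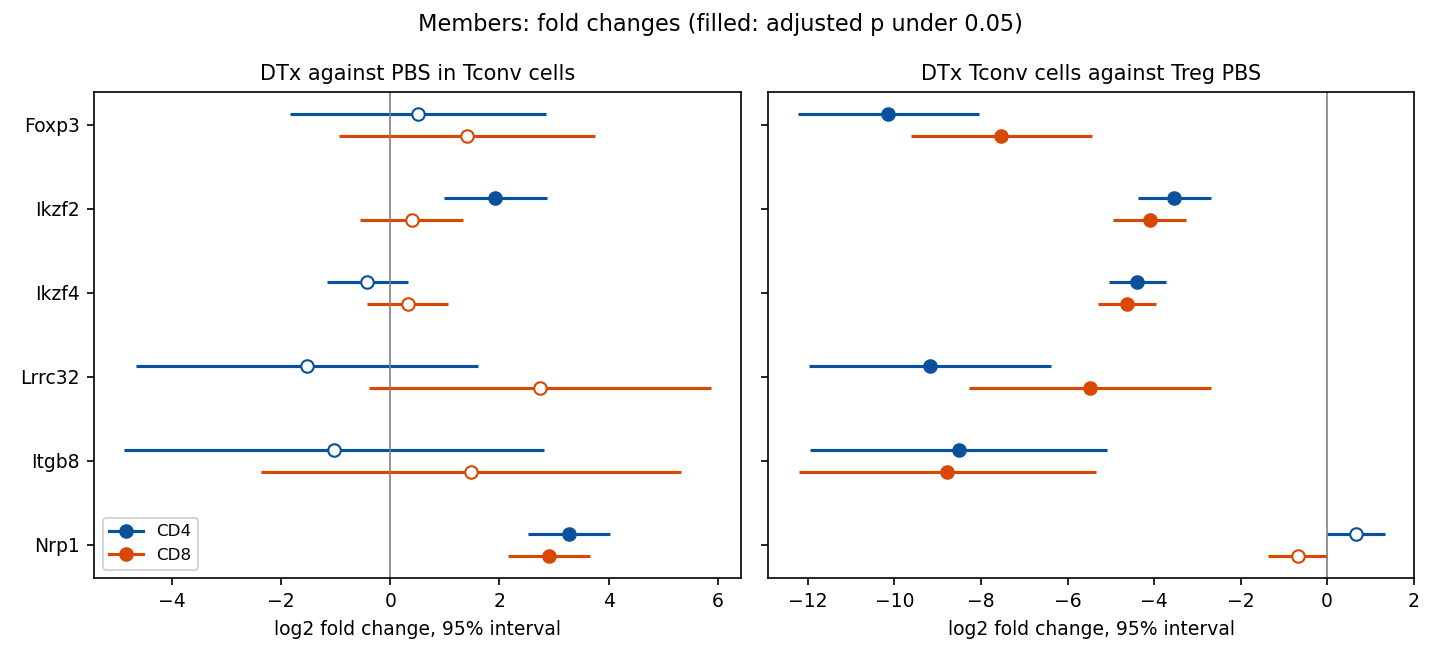
Log2 fold changes of the 6 members with 95% intervals from the fit across all genes, for DTx against PBS within each lineage (left) and for DTx-exposed Tconv cells against Treg PBS (right), where filled points have an adjusted p under 0.05. Nrp1 passes at 3.27 and 2.92 on the left and lies within 0.68 of 0 on the right, where the other 5 members lie between -10.14 and -3.53. The Foxp3 points on the right follow from the gate.

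The DTx effect passed for 2 of 6 members in the higher direction in CD4 Tconv cells (Ikzf2 and Nrp1), where 8.64% of tested genes did, and for 1 of 6 (Nrp1) in CD8 Tconv cells, where 7.4% did. None of the 6 fell, where 4.08% of tested genes fell in CD4 and 3.47% in CD8 Tconv cells. That count is near the background, and Foxp3 in CD4 PBS and Itgb8 in CD8 PBS, both at 0, could not fall. Against Treg PBS, 5 of 6 members were lower in CD4 DTx, where 4.55% of tested genes were, and 5 of 6 were lower in CD8 DTx, where 4.71% were. Foxp3, whose difference the gate set, is among the 5 in both. The members were chosen as Treg genes with earlier results of these data known. These counts therefore describe that choice and are no evidence of enrichment. In CD4 DTx against CD8 DTx none of the 6 passed by limma or edgeR, 3 were under 0.05 before adjustment and DESeq2 called Nrp1, where 1.64% of tested genes passed either way. That limma fit left out the pairing by replicate number, and with the number as a block Nrp1 passed (limma, adjusted p = 0.0203). None of the 6 passed in the comparison of both DTx effects by limma, edgeR or DESeq2, 1 of 6 (Ikzf2) was under 0.05 before adjustment, and 0.0474% of tested genes passed. Comparisons shared libraries. Of the 8 comparisons made in all, 4 used the Treg PBS libraries, 3 used those of CD4 PBS and 3 used those of CD8 PBS.

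Of 14 listed ligands and co-receptors of neuropilin-1, 12 were tested. With DTx none of the 12 passed by limma or edgeR in either lineage, with 1 and 2 genes under 0.05 before adjustment in CD4 and CD8 and 0 and 1 called by DESeq2. Sema4a, a semaphorin that binds neuropilin-1, averaged 1140 ± 546 normalized reads (SD, n = 3) in Treg PBS and 7624 ± 684 (SD, n = 2) in CD4 PBS, a log2 fold change of -2.88 (limma, SE 0.41, adjusted p = 4.74e-04). Every CD4 DTx library held more Sema4a than either CD4 PBS library, with a log2 fold change of 0.76 (SE 0.41, adjusted p = 0.267). It was higher in CD4 DTx than in Treg PBS, at 13351 ± 4102, with a log2 fold change of 3.64 (SE 0.37, adjusted p = 2.17e-04). In CD8 DTx it was at 15343 ± 3247, with a log2 fold change of 3.87 (SE 0.37, adjusted p = 6.24e-05). CD8 PBS already held 12191 ± 593 (limma, Treg PBS against CD8 PBS -3.56, SE 0.41, adjusted p = 1.42e-04). With DTx, Sema4a changed by 0.31 in CD8 Tconv cells (limma, SE 0.41, adjusted p = 0.650), and the groups overlapped. Sema4a thus stood above its Treg level in Tconv cells with and without DTx, while Nrp1 stood near its Treg level only with DTx. Nrp2, the paralog of Nrp1, was at 8.81 ± 9.26 in Treg PBS against 212 ± 102 in CD8 PBS (log2 fold change -4.76, SE 1.12, adjusted p = 0.0116).

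Set beside 37 other genes linked to Treg cells (a list drawn up with earlier results of these data known), Nrp1 stood among the higher shares of the Treg level after DTx and the other 5 members among the lower ones. In CD4 DTx 1 of the 37, Il1rl1 at 279%, stood above Nrp1, and 5 stood below Ikzf2, the highest of the other members. In CD8 DTx 7 of the 37 stood above Nrp1, led by Gzmb at 436%. Of the 37, 35 were higher in Treg PBS than in CD4 PBS, where 13.5% of tested genes were (limma). After DTx 30 rose and 1 fell in CD4 Tconv cells, where 8.64% and 4.08% of tested genes did. In CD8 Tconv cells 18 rose and 1 fell, where 7.4% and 3.47% did. By edgeR 29 rose and 0 fell in CD4, and 17 rose and 1 fell in CD8. By DESeq2 31 rose and 0 fell in CD4, and 22 rose and 1 fell in CD8. Their median log2 fold change with DTx was 3.24 in CD4 and 2.09 in CD8 Tconv cells, against -0.037 and -0.026 over all tested genes. Their median level in CD4 DTx was 30.8% of the Treg PBS mean, and the median over the 6 members was 2.93%. In CD4 DTx, 5 of the 37 were below 10% of the Treg level and 5 were above 100%. Among the 6 members those counts were 5 and 1. These counts describe lists of unequal make-up and were not tested against each other.

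Single genes of that list show the range. Il1rl1, the IL-33 receptor, rose in CD4 Tconv cells from 63.2 ± 30.5 to 3510 ± 1635 normalized reads (log2 fold change 5.74, SE 0.47, limma, adjusted p = 6.60e-05). Gzmb, the cytotoxic protease granzyme B, rose in CD8 Tconv cells from 2926 ± 2622 to 83481 ± 19895 (log2 fold change 5.18, SE 0.60, adjusted p = 5.33e-04). Gpr83, a G protein-coupled receptor found on Treg cells, fell in CD4 Tconv cells from 489 ± 135 to 14.3 ± 23.0 (log2 fold change -6.58, SE 1.76, adjusted p = 0.0281), a call that edgeR (adjusted p = 0.0735) and DESeq2 (adjusted p = 0.106) did not make. Plagl1, a zinc finger gene, was at 0 in all 3 CD4 DTx libraries, at least 15.8-fold lower than in Treg PBS (adjusted p = 0.00698, and 0.0600 by edgeR).

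**Figure D4:**
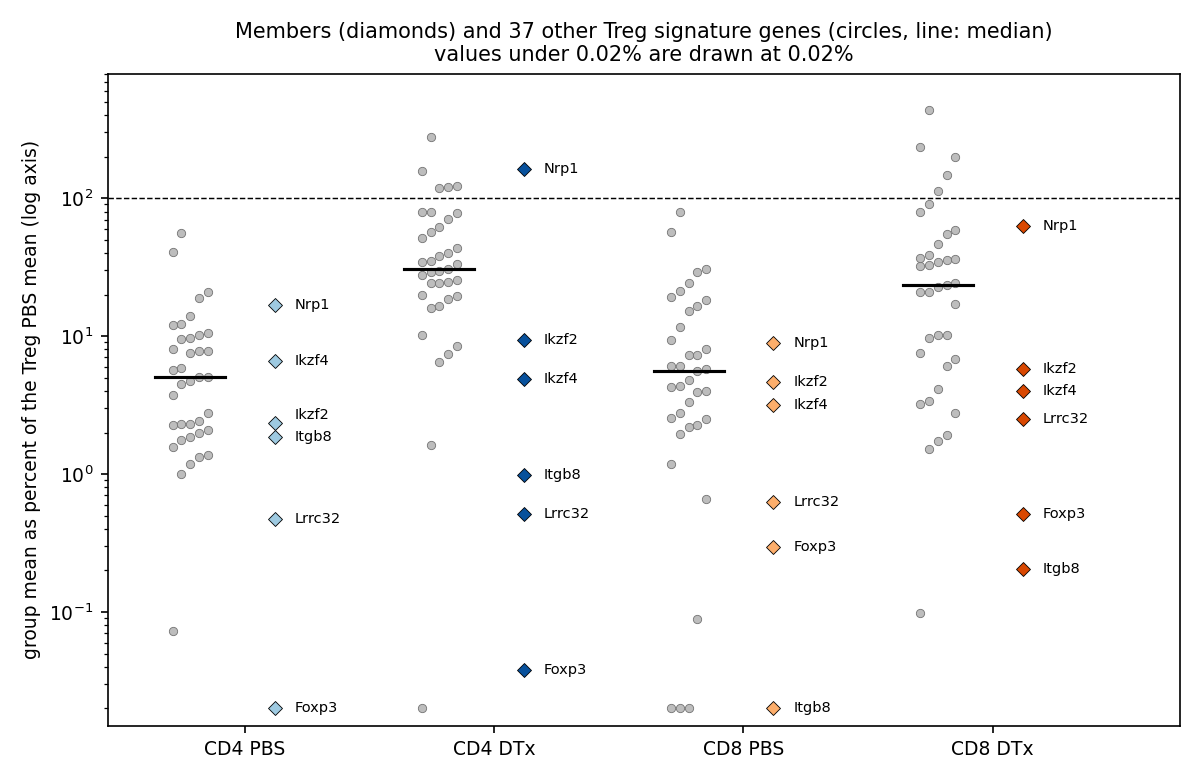
Mean level in each Tconv group as a percent of the Treg PBS mean (log axis) for the 6 members (diamonds, named) and for 37 other Treg signature genes (circles, line at the median). With DTx the median circle stands at 30.8% in CD4 and 23.6% in CD8, Nrp1 stands above it at 164% and 62.5%, and the other 5 members stand below it.

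Of 34 genes known to act on the Foxp3 locus or with Foxp3, all tested, 3 were higher and 9 lower in Treg PBS when set against CD4 PBS, where 6.91% of all tested genes were lower, and with DTx 3 rose and 5 fell in CD4 and 1 rose and 5 fell in CD8 Tconv cells (limma). Of all tested genes 8.64% rose and 4.08% fell in CD4, and 7.4% rose and 3.47% fell in CD8 Tconv cells, so the shares of the 34 that rose were near or below the background. Bach2, a repressor that holds T cells back from effector fate, was at 2663 ± 520 normalized reads in CD4 PBS and 181 ± 74.1 in CD4 DTx, beside 176 ± 139 in Treg PBS. Its log2 fold change with DTx was -3.94 (SE 0.64, adjusted p = 0.00174) in CD4 and -3.15 (SE 0.64, adjusted p = 0.00929) in CD8 Tconv cells. Tcf7 (TCF-1) and Lef1, paired factors of naive and memory T cells, fell with it in CD4 Tconv cells, by log2 fold changes of -2.71 (SE 0.70, adjusted p = 0.0242) and -2.28 (SE 0.29, adjusted p = 3.75e-04). Against Treg PBS, 4 of the 34 were higher in CD4 DTx and none lower (limma), where 3.36% of all tested genes were higher, with 7 of the 34 under 0.05 before adjustment. Satb1, a chromatin organizer, led them at 18496 ± 3148 against 2731 ± 1510 (log2 fold change 2.93, SE 0.39, adjusted p = 9.26e-04).

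Across the 13 libraries the log2 levels of Foxp3, Ikzf2, Ikzf4, Lrrc32 and Itgb8 ran together, with Pearson r between 0.745 and 0.922 over their pairs. Nrp1 had r between 0.316 and 0.538 with each of them. These values describe 5 groups of libraries sorted by cell type, and most of the shared course is the step from Tconv to Treg. The genes most like each member were picked by r over these same libraries, so a shared course was set by the choice. The 3 most like Foxp3 were Nol10 (r = 0.963), Frmd5 (r = 0.951) and Snx9 (r = 0.950), of which Frmd5 was at 170 ± 57.7 normalized reads in Treg PBS and at 0 in both CD4 groups. Nol10 was at 1781 ± 174 in Treg PBS with Tconv group means from 723 to 996, so a high r did not require near-absence from Tconv cells. The 3 most like Ikzf4 were C2cd4b, Ky and Cep112 (r from 0.980 to 0.986), all at 0 in both DTx groups.

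The genes most like Ikzf2 were Pnkd, Gphn and Lclat1 (r from 0.953 to 0.963), those most like Lrrc32 were Itga3, Chadl and Cacna1s (r from 0.923 to 0.931), and those most like Itgb8 were Hacd3, Zfp174 and Emsy (r from 0.938 to 0.948). Emsy was at 2737 ± 165 in Treg PBS with Tconv group means from 1684 to 2094. Those most like Nrp1 were Socs2 (r = 0.973), a feedback inhibitor of cytokine signalling, Aplp1 (r = 0.972) and Pkp3 (r = 0.966). Mean normalized reads of Socs2 came to 1457 ± 250 in Treg PBS, 118 ± 78.8 in CD4 PBS, 1712 ± 111 in CD4 DTx, 48.7 ± 46.2 in CD8 PBS and 805 ± 89.9 in CD8 DTx. That is the order of Nrp1, by which Socs2 was picked, with CD4 DTx first, Treg PBS next and CD8 DTx after it.

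Markers of other cells in the tumor were read beside Nrp1, since several of those cells make it. The summed level of 8 monocyte and macrophage markers was 1283 and 1459 in CD4 PBS and 88.8, 2189 and 1298 in CD4 DTx, where the library at 88.8 held Nrp1 at 5067. The same sum in CD8 Tconv cells was 2155 and 662 with PBS and 1842, 2759 and 2477 with DTx, higher on average with DTx and overlapping. Its markers were split. Cd68 was at 124 to 273 in CD8 PBS and 607 to 1055 in CD8 DTx, and Itgam at 13.3 to 205 and 513 to 1606. Lyz2 went the other way, from 497 to 1321 in CD8 PBS to 51.0 to 198 in CD8 DTx. The ranges of the other markers in that sum overlapped. The 6 dendritic cell markers in the table, of 7 listed, summed to between 283 and 436 in CD4 Tconv cells with PBS and between 497 and 751 with DTx, and in CD8 Tconv cells to between 3949 and 5231 with PBS against 717 to 809 with DTx. Most of the CD8 PBS sum was Ccr9, at 3578 to 5035 against 99.6 to 141 in CD8 DTx, so that sum follows 1 gene and not the list as a whole. Xcr1 went the other way, from 96.0 to 139 in CD8 PBS to 478 to 657 in CD8 DTx. It was also at 21.8 to 73.8 in CD4 PBS and at 374 to 604 in CD4 DTx. The other dendritic cell markers stayed at 163 or less in the CD8 libraries. Of 7 endothelial markers only Pecam1, which T cells also make, was in the table, at 7092 and 7291 in CD4 PBS and from 1772 to 2719 in CD4 DTx, and from 3762 to 3865 in CD8 PBS and 944 to 1403 in CD8 DTx. The CD8 lineage sum of Cd8a and Cd8b1 reached 3662 in CD4 DTx replicate 3 and 2352 in replicate 2, against 370 in replicate 1, where Nrp1 was lowest of the 3 and Ikzf2 highest. Melanocyte markers (4 of 6 in the table) of CD4 Tconv cells summed to 435 to 448 with PBS and 89.0 to 170 with DTx, and erythroid markers (4 of 6) to 1103 to 7643 and 0 to 1284. Platelet markers (2 of 5) stayed at 53.3 or less and B cell markers (4 of 5) at 272 or less in these CD4 libraries, and the 1 fibroblast marker of 7 in the table, Pdgfrb, reached 35.8 in CD4 DTx from 0 in CD4 PBS. Mrc1, a macrophage marker, was at 0 in all CD4 DTx and CD8 DTx libraries, and Clec9a, a dendritic cell marker, was at 0 in every library. The part of these markers in the Nrp1 and Ikzf2 results was not tested.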

How the data were processed

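RNA was sequenced from T cells sorted from B16-F10 tumors. According to labels and methods, the authors made low-input SMART-type libraries, checked reads with FastQC, trimmed adaptors with Cutadapt, aligned to NCBIM37 (mm9) with hisat2 and used uniquely mapped reads. The counter and strand setting are not given in the sources used here. The authors deposited 1 table with a normalized signal per gene and library, described as FPM. Its columns summed to between 2.18e+07 and 2.75e+07, and 100% of values were whole multiples of 1 step per library (within 0.01 of a read), so whole reads were recovered. Tests were run on log2(value + 1) with limma 3.58.1 (R 4.3.3), with a mean trend, over all 13 libraries and 1 mean per group. Genes needed at least 10 units in at least 2 libraries. Genes passed where the p-value, adjusted by Benjamini-Hochberg over all 12667 genes, was under 0.05. As alternatives, edgeR 4.0.16 and DESeq2 1.42.0 were run on recovered reads, along with a pseudocount of 10, no filter, an absolute log2 fold change above 2, TMM scaling, the compared groups alone, the replicate number as a block and each library left out. Sex as a covariate was added after seeing the data. The fits were tested on simulated data.

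Members and gene lists were chosen with earlier results of these data known. Beyond the members, text names up to 3 passing genes with the largest change per list and comparison, the 3 genes with the highest r to each member, and lineage markers, and says where a gene falls outside this. Same-numbered libraries of CD4 DTx and CD8 DTx deviated together (r from 0.207 to 0.590 over 3 pairs), so numbers were taken to pair these groups. The study describes biological replicates taken on separate days, and the labels tie no library to an animal, so p-values measure the spread between these samples. Pairs within groups differed far beyond counting noise. Amplified copies cannot be told from separate molecules, so floors and counting intervals cover counting error only. A spreadsheet had made dates of 21 gene symbols, and those rows were kept but not named. Exon lengths came from GENCODE M21 and promoters from RefSeq on GRCm38.p6. The added 1 can shrink log2 fold changes of low genes, and single libraries at 0 can enlarge them, so they are no lower bounds. For Itgb8 in Treg PBS against CD4 PBS limma gave 7.48, edgeR 5.64 and DESeq2 5.74.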

Additional observations from a re-analysis of the deposited data

How the results depend on the processing

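The 6 members kept their calls in the Treg PBS against CD8 PBS comparison, and Nrp1 kept both DTx calls, in each alternative run. An absolute log2 fold change above 2 lowered the genes passing to 1292 (Treg PBS against CD4 PBS, from 2581), 1192 (Treg PBS against CD8 PBS, from 2367), 868 (CD4 DTx against CD4 PBS, from 1612), 692 (CD8 DTx against CD8 PBS, from 1377), 508 (CD4 DTx against Treg PBS, from 1002), 624 (CD8 DTx against Treg PBS, from 1089) and 127 (CD4 DTx against CD8 DTx, from 208). It also lowered the members passing in CD4 with DTx from 2 to 1, since Ikzf2 changed by 1.93, and so did fitting the CD4 groups alone. The compared groups alone gave 748 genes for CD8 DTx and 106 for CD4 DTx against CD8 DTx, and there Foxp3 or Itgb8 could not be fitted where too few libraries passed the filter. DESeq2 gave 1543 genes for CD4 DTx against Treg PBS, 520 for CD4 DTx against CD8 DTx and 85 (from 6) for the comparison of both DTx effects, and edgeR gave 131 for CD4 DTx against CD8 DTx. In CD4 DTx against CD8 DTx, 1 member (Nrp1) passed in place of 0 with a pseudocount of 10, TMM scaling, the replicate block, sex as a covariate and DESeq2. The replicate block gave 1739 genes for CD4 DTx against Treg PBS and 414 for CD4 DTx against CD8 DTx, and changed no other call on a member. Same-numbered libraries elsewhere correlated with a mean r from -0.26 to 0.18. The number also went with sex in each group, and whether it marks a shared day is not stated, so these groups were not taken as paired.

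Leaving out single libraries gave ranges of 1187 to 3130 genes (Treg PBS against CD4 PBS), 761 to 2903 (Treg PBS against CD8 PBS), 658 to 1912 (CD4 DTx), 197 to 2497 (CD8 DTx), 555 to 1162 (CD4 DTx against Treg PBS), 703 to 1270 (CD8 DTx against Treg PBS), 61 to 226 (CD4 DTx against CD8 DTx) and 0 to 14 (both DTx effects). The lowest counts came without CD4 PBS replicate 3, CD8 PBS replicate 3, Treg PBS replicate 2 or CD4 DTx replicate 2, and the count of 2497 without CD8 DTx replicate 3. Members passing ranged from 5 to 6 in Treg PBS against CD4 PBS, from 1 to 2 in CD4 with DTx, from 4 to 5 in CD8 DTx against Treg PBS and from 0 to 1 in CD4 DTx against CD8 DTx. Signs that turned belonged to changes that did not pass. For Lrrc32 with DTx in CD4 edgeR gave 0.088 and DESeq2 0.10. For Foxp3 the difference of DTx effects was 1.95 with edgeR and 1.27 with DESeq2. Leaving out single libraries, it ranged from -2.61 to 0.81, positive without CD8 PBS replicate 3. Without that library the CD8 DTx effect also turned for Foxp3 (range -0.30 to 3.12) and Ikzf2 (-0.13 to 0.92). Without CD4 PBS replicate 3 Itgb8 turned in the CD4 DTx effect (-3.815 to 1.75) and the difference of effects (-5.30 to 0.26). In CD4 DTx against CD8 DTx, Itgb8 turned without CD4 DTx replicate 2 or CD8 DTx replicate 3 (-1.485 to 1.135) with -0.48 for the latter, and Ikzf4 without CD4 DTx replicate 3 (-0.0057 to 0.40). The Nrp1 difference of effects turned without CD8 PBS replicate 2 (-0.22 to 0.93). The cause was not tested. Genes with few reads (Foxp3, Lrrc32 and Itgb8 in Tconv cells) have the widest intervals, and depth limits what can be said of them.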
